A study of Mus musculus with 4 samples.

Results

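Accessible regions of mouse chromosome 6 were collected from ATAC-seq peak lists of the melanoma line B16F10, which derives from mouse and was kept in culture. ATAC-seq uses the Tn5 transposase to insert adapters into open chromatin, and the libraries here were made by the Omni-ATAC protocol with 50000 cells per reaction. The groups were cells with a guide RNA against Arid1a (sgArid1a, n = 2) and cells with a scrambled guide (sgScramble, n = 2), both in the same line and with no treatment named in the labels. The regions were chosen by the authors' peak calls. All peaks on chromosome 6 in the 4 broad peak lists were merged where they overlapped by at least 1 bp, which gave 8226 regions of 103629 in all and left 95403 on other chromosomes. The labels leave it unsaid whether the guides were used in a clone or a pool, and do not name separate cultures for the replicates, whose spread may be technical. The lists hold no read counts, and the depth of each library is unknown. Peaks were called per library.

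Arid1a encodes a subunit of the BAF (SWI/SNF) complex, which uses ATP to slide or evict nucleosomes. The complex is best known for keeping enhancers open, while many promoters rich in CpG sites hold an open state by other means as well. Mouse chromosome 6 carries several genes of melanoma biology: Mitf, the master transcription factor of melanocytes, Met, the receptor for hepatocyte growth factor, and Braf, a kinase of the MAP kinase pathway. It also holds the HoxA cluster.

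A region was called lost when both sgScramble lists and neither sgArid1a list had a peak in it, and gained in the reverse case. These definitions compare the groups directly, so the counts of lost and gained regions are descriptions of the 4 lists with no test. Strength is the percentile of the authors' fold (signal over background) among all peaks of the same list, averaged over the lists of a group. Coordinates are GRCm38, and gene names, gene ends and promoter sequences come from RefSeq on GRCm38.p6. Ends of 8 of 8 melanocyte genes fixed as markers (Mitf, Tyr, Tyrp1, Dct, Pmel, Mlana, Sox10 and Pax3) lay within 1 kb of a peak in all 4 lists. Of 17 markers of other cell types, 9 had no peak in any list, among them Ptprc of leukocytes, Epcam of epithelium and Pecam1 of endothelium. Another 5 had one in every list (Cd3d, Cd79a, Krt8, Col1a1 and Pdgfra), and 3 had one in some. The presence of other cell types was not tested further.

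Promoter windows give the sequence under open, lost and gained regions at gene starts. RefSeq gives 1865 windows of 300 bases (250 before a start to 50 after it) for 1545 genes of the chromosome. A region in all 4 lists covered part of 738 of them (39.57%), with a median of 20 CpG sites per window. Another 16 windows (0.8579%) lay under lost regions, with a median of 5 CpG sites, and 1 window (0.05362%) lay under a gained region. The median was 6 over all windows of the chromosome and 7 over all promoter windows of the genome, so 5 was close to the background. The shares of lost and gained windows over the genome are not given here. The 1052 windows with no region had a median of 3 CpG sites. Of the 16 windows under lost regions, 8 belonged to long non-coding RNA genes and 8 to the protein-coding genes Fam71f2, Kcp, Prss37, Sh2d6, Wnt7a, Depp1, Akap3 and Tex52. The gained window was that of Slco1a6, a gene of the organic anion transporter family. Sequences of 5 windows are shown, as the gained window, 3 lost windows of different base composition and the inner start of Mitf. Each runs 5′ to 3′ on the strand of its gene, and capitals mark the bases inside the accessible region.
Slco1a6 (gained): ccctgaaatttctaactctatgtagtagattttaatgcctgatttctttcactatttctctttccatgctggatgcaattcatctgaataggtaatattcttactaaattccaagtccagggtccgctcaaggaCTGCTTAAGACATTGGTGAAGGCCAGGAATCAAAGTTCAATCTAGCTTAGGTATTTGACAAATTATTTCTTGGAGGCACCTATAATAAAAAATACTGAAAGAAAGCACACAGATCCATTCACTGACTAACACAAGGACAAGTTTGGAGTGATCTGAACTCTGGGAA
Depp1 (lost): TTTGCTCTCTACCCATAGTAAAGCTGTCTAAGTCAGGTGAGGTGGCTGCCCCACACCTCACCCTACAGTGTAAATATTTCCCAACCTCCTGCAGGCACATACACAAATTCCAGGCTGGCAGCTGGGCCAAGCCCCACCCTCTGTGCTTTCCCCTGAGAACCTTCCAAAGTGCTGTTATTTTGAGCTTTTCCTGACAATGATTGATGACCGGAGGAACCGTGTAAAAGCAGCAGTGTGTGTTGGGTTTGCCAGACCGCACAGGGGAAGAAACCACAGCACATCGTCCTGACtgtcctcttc
Prss37 (lost): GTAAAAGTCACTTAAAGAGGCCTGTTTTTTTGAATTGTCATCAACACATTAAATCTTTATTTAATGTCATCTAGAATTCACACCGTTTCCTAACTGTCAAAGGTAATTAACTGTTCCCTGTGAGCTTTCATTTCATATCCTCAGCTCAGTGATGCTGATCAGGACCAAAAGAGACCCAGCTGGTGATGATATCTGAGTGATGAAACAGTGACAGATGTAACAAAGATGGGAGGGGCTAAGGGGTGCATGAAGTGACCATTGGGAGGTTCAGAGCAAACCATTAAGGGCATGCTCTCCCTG
Wnt7a (lost): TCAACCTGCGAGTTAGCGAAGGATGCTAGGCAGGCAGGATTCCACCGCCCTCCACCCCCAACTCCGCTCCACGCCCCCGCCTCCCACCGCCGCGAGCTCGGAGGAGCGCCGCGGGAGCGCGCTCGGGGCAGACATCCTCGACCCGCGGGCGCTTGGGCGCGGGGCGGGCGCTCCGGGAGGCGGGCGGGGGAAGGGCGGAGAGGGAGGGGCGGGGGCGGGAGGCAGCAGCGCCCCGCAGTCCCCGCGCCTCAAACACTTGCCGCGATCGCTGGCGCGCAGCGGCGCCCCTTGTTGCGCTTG
Mitf, inner start (in all lists): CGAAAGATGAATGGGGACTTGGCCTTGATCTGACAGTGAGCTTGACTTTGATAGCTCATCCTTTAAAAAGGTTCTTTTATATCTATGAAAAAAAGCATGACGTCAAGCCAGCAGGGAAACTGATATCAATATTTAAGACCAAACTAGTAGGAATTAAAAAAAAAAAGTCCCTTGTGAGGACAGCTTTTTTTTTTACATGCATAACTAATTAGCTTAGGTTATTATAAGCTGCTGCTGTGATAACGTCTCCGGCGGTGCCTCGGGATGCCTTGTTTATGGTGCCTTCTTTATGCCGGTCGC

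The Slco1a6 window (chr6:142186100-142186399, minus strand) has 1 CpG site, and 166 of its 300 bases lay in the gained region at 142185262 to 142186265. Within 1 kb of the ends of Slco1a6, peaks covered 780 and 547 bp in the sgArid1a lists and 0 and 0 bp in the sgScramble lists, which restates the call. The region was weak, at a mean percentile of 16.01 in the sgArid1a lists, with folds of 3.088 and 2.611. Near the ends of Wnt7a, which encodes a secreted Wnt ligand and was shown for its lost window, peaks covered 0 and 0 bp in sgArid1a and 633 and 518 bp in sgScramble lists. Its window (chr6:91411304-91411603, minus strand) holds 42 CpG sites, many more than the other lost windows shown, and the lost region stood at percentile 11.48. The Depp1 window (chr6:116650434-116650733, plus strand) has 4 CpG sites, and 290 of its bases were lost at percentile 26.47. Depp1 encodes a regulator of autophagy induced by FOXO factors. The window of Prss37, a gene for a trypsin-like protease of the testis, lies at chr6:40519459-40519758 on the minus strand, has 1 CpG site and was lost whole at percentile 20.01.

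Mitf starts at several promoters, and the inner window shown (chr6:97991533-97991832, plus strand) was open in all 4 lists. It holds the 8 letters TGACGTCA, the cyclic AMP response element, from position 98 of the window, counted from 1 at its 5′ end. Folds at the region were 2.586 and 2.558 in sgArid1a, against 2.935 and 2.901 in sgScramble lists. The mean percentile was 4.901 in sgArid1a and 17.04 in sgScramble lists. At the outer Mitf start (chr6:97806808-97807107) the percentile was 87.09 in sgArid1a and 83.02 in sgScramble lists. The letters TGACGTCA, which read the same on both strands, occurred in 27 of the 738 windows open in all lists (3.659%), in 0.6654% of windows with no region and in 1.79% of all promoter windows of the genome. TGANTCA, the AP-1 motif, which also reads the same on both strands, was found in 5.962% of windows open in all lists and 10.55% of those with no region, against 7.808% of all promoter windows. It occurred in 1 of the 16 lost windows and in neither the gained window nor any other shown here. Such matches describe the letters of a window and not the binding of a factor.

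Chromosome 6 was densely covered by accessible regions for its gene content. It held 54.99 regions per Mb, second of 20 chromosomes after chromosome 11 (61.2), while its 7.527 protein-coding genes per Mb had rank 11. Regions found in a single list made up 26.78% of those on chromosome 6, the highest share of the 20 chromosomes and above the 21.9% elsewhere. Both sgArid1a lists contributed to this. Regions seen only in sgArid1a replicate 1 were 6.188% of those on chromosome 6 and 3.699% of those elsewhere, and regions seen only in sgArid1a replicate 2 were 6.03% and 4.609%. Both shares were the highest of any chromosome. Regions seen only in sgScramble replicate 1 or 2 were 6.261% and 8.303% on chromosome 6, against 5.717% and 7.878% elsewhere. Conversely, 3745 regions (45.53%) were in all 4 lists, against 51.51% on the other chromosomes.

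The sgArid1a lists had fewer and narrower peaks on the chromosome. They held 4980 and 5360 peaks there, against 6155 and 6416 in the sgScramble lists, or 5170 ± 268.7 against 6286 ± 184.6 (SD, n = 2 each). Covered length was 3.893 and 4.558 Mb in sgArid1a and 5.434 and 5.594 Mb in sgScramble lists. Median peak width was 637 and 713 bp against 751 and 731 bp. The groups did not overlap in any of these, and the exact two-sided permutation p over libraries was 0.333 for each, the smallest that 2 against 2 can give. The lists were shorter over the whole genome as well. On other chromosomes the median width was 679 and 734 bp in sgArid1a and 754 and 743 bp in sgScramble lists, again without overlap. Whole lists held 65353 and 71255 peaks in sgArid1a and 82319 and 85613 in sgScramble, and chromosome 6 took 7.62% and 7.522% of the sgArid1a lists and 7.477% and 7.494% of the sgScramble lists (difference 0.0856 percentage points, exact permutation p = 0.333). That difference turned negative when lists were limited to their upper 50% by fold (-0.2005), with a −log10 q of at least 5 (-0.1487) and with peaks of at least 500 bp (-0.1319).

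Peaks on chromosome 6 were also weaker than elsewhere. The median authors' fold there was 3.569 and 3.48 in sgArid1a and 3.769 and 3.696 in sgScramble lists, against 3.9, 3.772, 4.021 and 3.946 in the same lists on other chromosomes. In regions open in all lists, the mean percentile on chromosome 6 was 53.5 in sgArid1a and 58.84 in sgScramble lists. Chromosomes 11 (56.87) and 15 (56.89) had lower means in sgScramble lists, and chromosome 15 (53.48) also in sgArid1a lists. The difference of -5.344 on chromosome 6 was the most negative of the 20 chromosomes, but differences were negative on all of them. Chromosomes 10 (-4.962) and 14 (-4.909) came next, and chromosome 19 (-2.318) was least negative. Within chromosome 6 the sign differed by place. Up to 130 Mb the difference was 2.66 in regions within 1 kb of a gene end and -7.221 in those farther away. From 130 Mb on these values were 2.385 and -6.478. Regions at gene ends made up 18.24% of all-list regions on chromosome 6 and 24.39% elsewhere, and how far that bears on the rank was not tested. By library the mean percentile on chromosome 6 was 52.64 and 54.35 in sgArid1a and 58.23 and 59.45 in sgScramble lists. The groups did not overlap there, nor on any other chromosome ranked. Percentiles are ranked within lists of unequal length, and how far that moves them was not tested.

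In 5 Mb windows, numbered 1 to 30 from the first base of the 149.6 Mb, peak density varied widely. The densest was window 18 (85 to 90 Mb), with 546 regions or 109.2 per Mb, of which 306 were in all lists, and 84 protein-coding genes. Next came window 7 (30 to 35 Mb) with 485 regions, window 11 (50 to 55 Mb), which includes the HoxA cluster, with 455 regions, and window 24 (115 to 120 Mb) with 410. The emptiest was window 16 (75 to 80 Mb), with 32 regions and 9 genes. It was left out of comparisons of shares because only 13 of its regions were in both sgScramble lists. Over the other 29 windows the median was 287 regions, against 183 in 469 windows of the other chromosomes with at least 20 regions in both sgScramble lists. Regions and genes per window were only partly aligned (Pearson's r 0.44, Spearman's rho 0.483 over 29 windows that share the same 4 libraries).

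**Figure D1:**
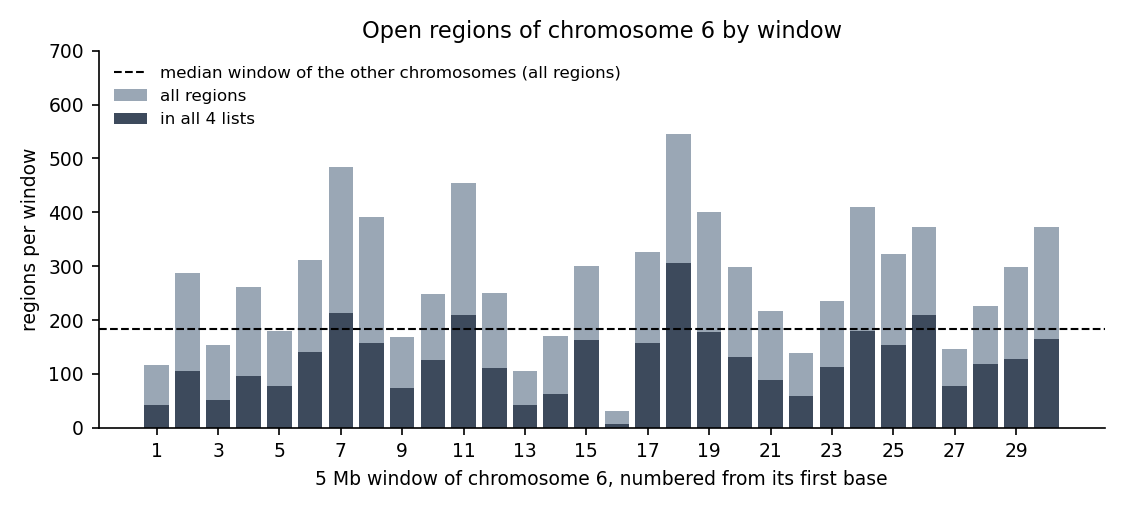
Accessible regions per 5 Mb window of chromosome 6 (bars; dark part, regions with a peak in all 4 lists), with windows numbered from the first base on the horizontal axis. Window 18 holds 546 regions and window 16 holds 32, and the dashed line marks the median of 183 regions in windows of the other chromosomes.

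Peaks were fewer in sgArid1a lists along the whole chromosome. The mean number per window was lower in sgArid1a than in sgScramble lists in 29 of 29 windows, and both sgArid1a lists lay below both sgScramble lists in 27 of 29. Over all chromosomes 98.0% of 498 windows showed that separation, so 27 of 29 (93.1%) was not above the background. The exceptions were windows 13 and 28. Window 28 (135 to 140 Mb) held 162 and 164 peaks in sgArid1a and 159 and 175 in sgScramble lists, so that the sgArid1a mean was 97.6% of the sgScramble mean. Among windows elsewhere, 99.79% had a lower ratio. At the other extreme, window 21 (100 to 105 Mb) held 118 and 125 peaks in sgArid1a and 165 and 171 in sgScramble lists, a ratio of 72.32%. The median window stood at 82.02% on chromosome 6 and 80.44% elsewhere.

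**Figure D2:**
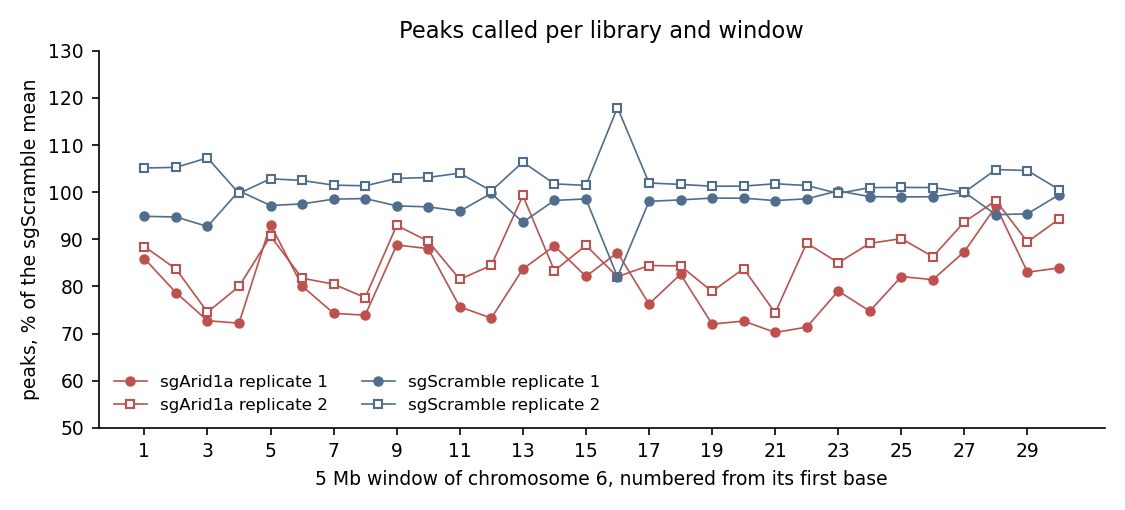
Peaks of each library per 5 Mb window, in percent of the sgScramble mean of the window, with sgArid1a replicates in red and sgScramble replicates in blue. The sgArid1a points lie below the sgScramble points in most windows and meet them in window 28, and window 16, with 16 to 23 peaks per list, scatters most.

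Lost regions were spread over the chromosome. There were 750, or 13.95% of the 5378 regions that both sgScramble lists held (Clopper-Pearson 95% interval 13.0% to 14.9%, for counting error over regions only), against 12.9% over all chromosomes. Gained regions numbered 87, or 2.19% of the 3973 regions in both sgArid1a lists (1.76% to 2.69%), against 1.39% over all chromosomes. The lost share had rank 5 among 20 chromosomes and the gained share rank 1. With lists cut to equal length, by −log10 p, 296 of 4199 regions were lost (7.05%, against 6.97% over all chromosomes) and 183 of 3831 gained (4.78%, against 4.37%), so both shares drew close to the background and the gained share had rank 5.

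Losses followed the density of the windows. The number of lost regions per window ran along with the number in both sgScramble lists (r 0.89, rho 0.862 over 29 windows). The highest lost share was in window 3 (10 to 15 Mb), with 19 of 88 regions (21.59%), and next came window 21, with 30 of 143 (20.98%), and window 19 (90 to 95 Mb), with 49 of 270 (18.15%). The lowest shares were in window 28, with 8 of 141 (5.674%), window 10 (45 to 50 Mb), with 12 of 168 (7.143%), and window 27 (130 to 135 Mb), with 7 of 94 (7.447%). Of windows on other chromosomes, 92.75% had a lower lost share than window 3 and 0.8529% a lower one than window 28. Windows with a larger share of their regions at gene ends tended to have a lower lost share (r -0.43, rho -0.455).

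The end of the chromosome kept more of its regions than the rest. From 130 Mb onwards, 56 of 644 regions were lost (8.696%, interval 6.635% to 11.14%), against 694 of 4734 (14.66%, 13.66% to 15.7%) up to 130 Mb. This boundary was chosen after the window values were seen. Peaks past it numbered 667 and 718 in sgArid1a and 747 and 786 in sgScramble lists, a ratio of 90.35%, against 81.13% up to 130 Mb. The lower share was also present among distal regions, more than 1 kb from a gene end (9.319% against 16.19%), among regions below the 50th percentile (16.56% against 25.95%) and among those at or above it (1.488% against 3.043%). At gene ends the shares were 4.651% and 5.365%. Mean strength in the sgScramble lists was 52.69 past 130 Mb and 49.82 before it. In a stretch of the same length at the end of each chromosome, chromosome 6 had the lowest lost share of 20, with chromosomes 5 (8.882%), 2 (8.905%) and 4 (9.091%) close behind it. The share past 130 Mb was below the rest of the chromosome in every alternative setting that was run, at 4.167% with lists of equal length. These strata and settings reuse the lists from which the boundary was drawn, so they are no independent check of it.

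**Figure D3:**
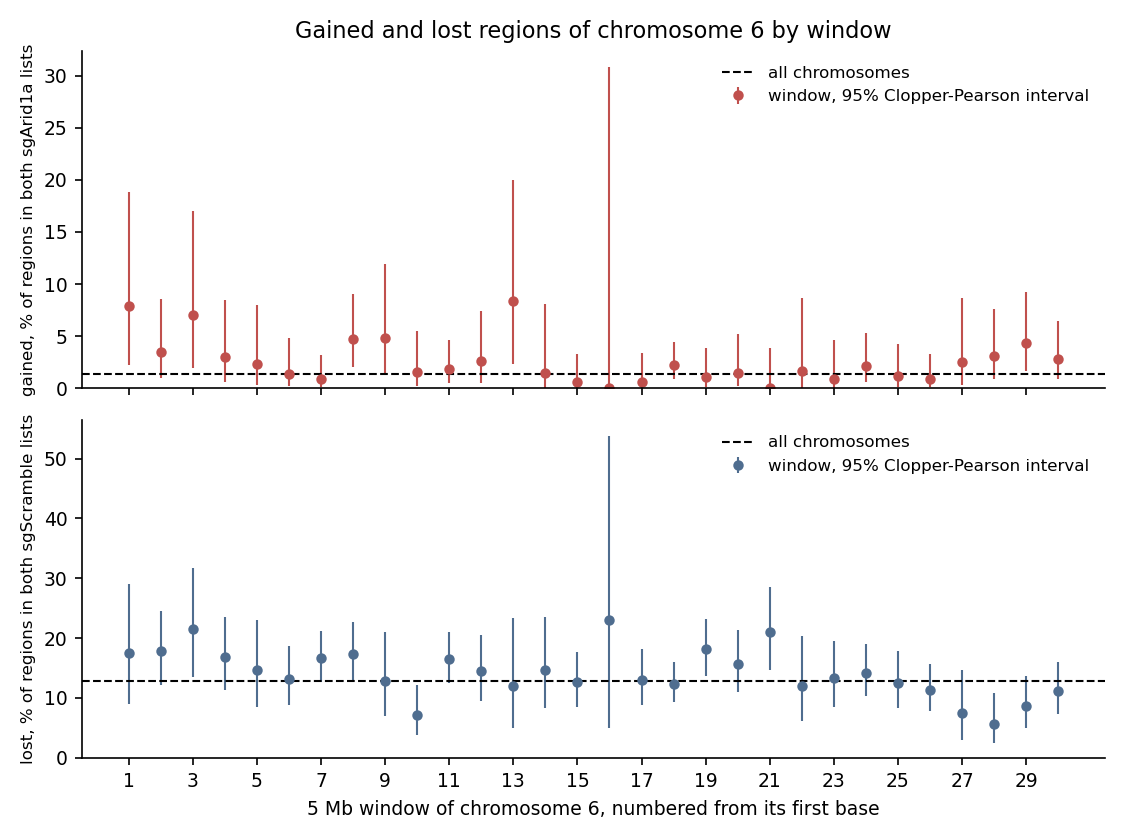
Gained regions in percent of the regions in both sgArid1a lists (top) and lost regions in percent of those in both sgScramble lists (bottom) per 5 Mb window of chromosome 6, with 95% Clopper-Pearson intervals. Dashed lines mark all chromosomes (1.39% gained and 12.9% lost), windows 27 to 30 lie below the lower line, and the widest intervals belong to window 16, which has 32 regions.

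In the lists as deposited, gained regions did not follow the density. Their number per window was only weakly related to the number of regions in both sgArid1a lists (r 0.30, rho 0.163 over 29 windows). Window 8 (35 to 40 Mb) had 8, the most of any window in the genome, or 4.706% of its 170 regions in both sgArid1a lists. Window 18 had 7 (2.181%) and window 29 (140 to 145 Mb) had 6 (4.348%). Window 7, next to window 8 and with more regions, had 2 (0.8969%), and windows 16 and 21 had 0. On the other chromosomes the median window had 1 and the highest had 7. The 3 fullest windows together held 21 of the 87 gained regions (24.14%) and 15.83% of the regions in both sgArid1a lists. Small windows gave the highest shares, with 4 of 48 regions in window 13 (60 to 65 Mb, 8.333%), 4 of 51 in window 1 (7.843%) and 4 of 57 in window 3 (7.018%). Lost and gained shares showed no clear relation across windows (r 0.12, rho -0.0118).

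The windows with the most gains changed with the lists. With lists of equal length, window 18, the densest, led with 14 gained regions, and window 8 had 7. Windows 7 and 30 had 13 each, while window 11 had 7 and window 17 had 0. Gains thus lay more in some dense windows than in the deposited lists, but their relation to density was not computed for these lists. Gained shares of the 29 windows in the 2 settings were related, but loosely (r 0.56, rho 0.501). With a −log10 q of at least 5, 8 regions were gained on the whole chromosome and no window had more than 2. The first 20 Mb had 15 gained of 325 regions (4.615%, interval 2.606% to 7.498%), against 1.974% from 20 Mb on, and also a high lost share (18.11%, 14.74% to 21.87%). This stretch, too, was picked after the values were seen, and its gained share was below the rest with the upper 50% of each list (2.098% against 4.478%) and with peaks of at least 500 bp (1.395% against 1.489%).

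Gains lay close to one another more often than on other chromosomes, where gained regions are also sparser. Of the 87 gained regions, 52 (59.77%) had another within 500 kb, the highest share of the 20 chromosomes, ahead of chromosome 12 (51.11%) and chromosome 4 (48.57%). Chromosome 6 also had the most gained regions per Mb (0.5816), and the 2 quantities move together across chromosomes. Among lost regions of chromosome 6, which are denser, 98.4% had another lost region within 500 kb. Within 100 kb the share of gained regions was 14.94%, below that of chromosome 18 (23.81%). The share within 500 kb depended on the filter, at 81.42% with lists of equal length, 23.08% with peaks of at least 500 bp and 0% with a −log10 q of at least 5. The median gap between neighbouring gained regions was 993.1 kb and the mean 1701 kb. The longest stretch without one ran 12.89 Mb from 71063243 to 83951419, and held 520 regions, of which 271 were in both sgArid1a lists.

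**Figure D4:**
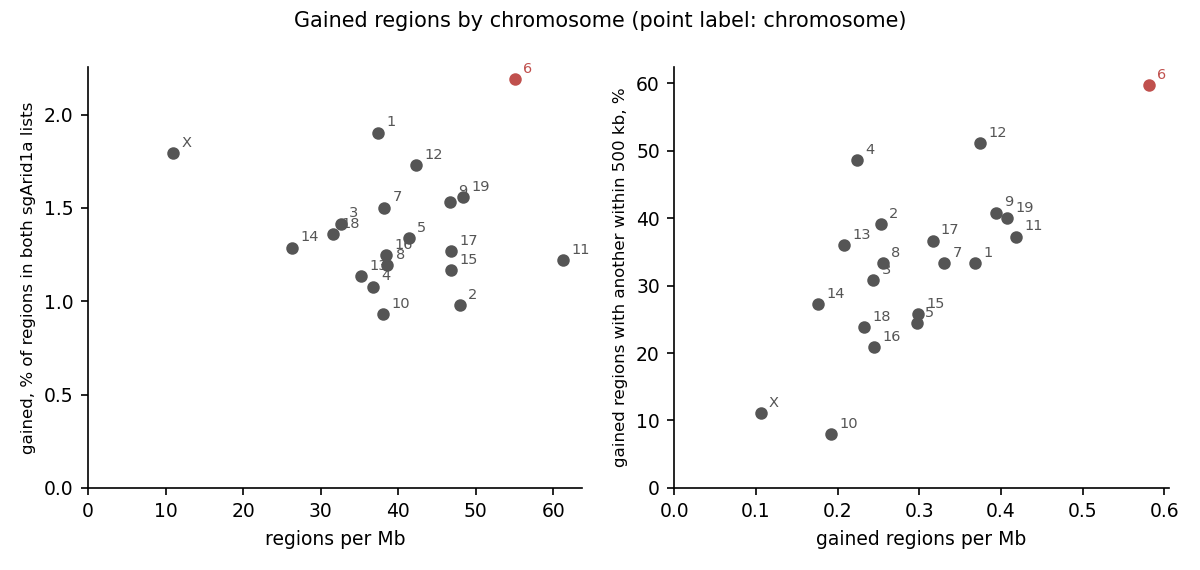
Each point is a chromosome (labelled; chromosome 6 in red). Left, gained share against regions per Mb; right, the share of gained regions with another within 500 kb against gained regions per Mb. Chromosome 6 is highest on both vertical axes, at 2.19% and 59.77%, and has the most gained regions per Mb (0.5816).

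At short range the gains formed 6 groups within 100 kb, holding 13 regions, and 5 of the groups lay wholly inside a single gene. The largest was in Phf14, which encodes a PHD finger protein that reads histones. Its 3 gained regions lay at 12020807 to 12021430, 12069565 to 12070034 and 12094638 to 12095469, with folds of 2.779, 2.809 and 2.967 in sgArid1a replicate 1 and 2.858, 2.91 and 2.843 in replicate 2. They were weak, at percentiles 15.1, 16.85 and 18.95, and the span held 3 regions open in all lists. A pair lay in Met at 17540225 to 17540674 and 17543511 to 17544199, at percentiles 1.568 and 1.085. Another pair lay in Dusp16, a phosphatase of MAP kinases, at 134721256 to 134721632 and 134730703 to 134731687, at percentiles 24.65 and 25.2. The body of Dusp16 held 7 and 8 peaks in sgArid1a and 4 and 4 in sgScramble lists, counts that include these gains. Further pairs lay in Nr2c2, an orphan nuclear receptor gene, with 1 lost region between them, and in Rasgef1a, a guanine nucleotide exchange factor gene. Of the pair at Cecr2, the gene of a bromodomain protein of a remodelling complex, 1 region lay inside the gene and the other 26522 bp outside it.

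Gained and lost regions were mostly weak and away from gene ends. Gained regions had a median width of 583 bp and a median percentile of 17.26, and 3 of 87 stood above the 50th percentile. Lost regions had a median width of 601.5 bp and a median percentile of 22.96, and 76 of 750 (10.13%) stood above the 50th, against 18.52% of lost regions elsewhere. Regions in all lists were 1155 bp wide in the median, at percentiles of 54.27 in sgArid1a and 62.21 in sgScramble lists. A gene end lay within 1 kb of 2 gained (2.299%), 40 lost (5.333%) and 683 all-list regions (18.24%). Gained regions on the other chromosomes were at gene ends in 8.187%. Inside gene bodies were 43 gained (49.43%) and 429 lost regions (57.2%), against 57.49% of all-list regions of the chromosome. On the other chromosomes the shares were 57.6% of gained and 55.96% of lost regions.

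The shift towards weak peaks was visible across classes of strength. Below the 20th percentile, 8.985% of regions in both sgArid1a lists were gained on chromosome 6, against 6.052% elsewhere. From the 40th to the 60th percentile the shares were 0.3297% and 0.6159%, and from the 60th to the 80th 0.2356% and 0.1665%. Above the 80th none of 778 was gained on chromosome 6, and the share elsewhere was 0% as well. Lost shares ran the same way. Below the 20th percentile 35.09% of regions in both sgScramble lists were lost on chromosome 6, against 32.31% elsewhere. From the 60th to the 80th percentile the shares were 3.246% and 4.42%, and above the 80th 3 of 986 regions (0.3043%) were lost, against 0.9119%. No test was made, since the classes and the calls come from the same lists.

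**Figure D5:**
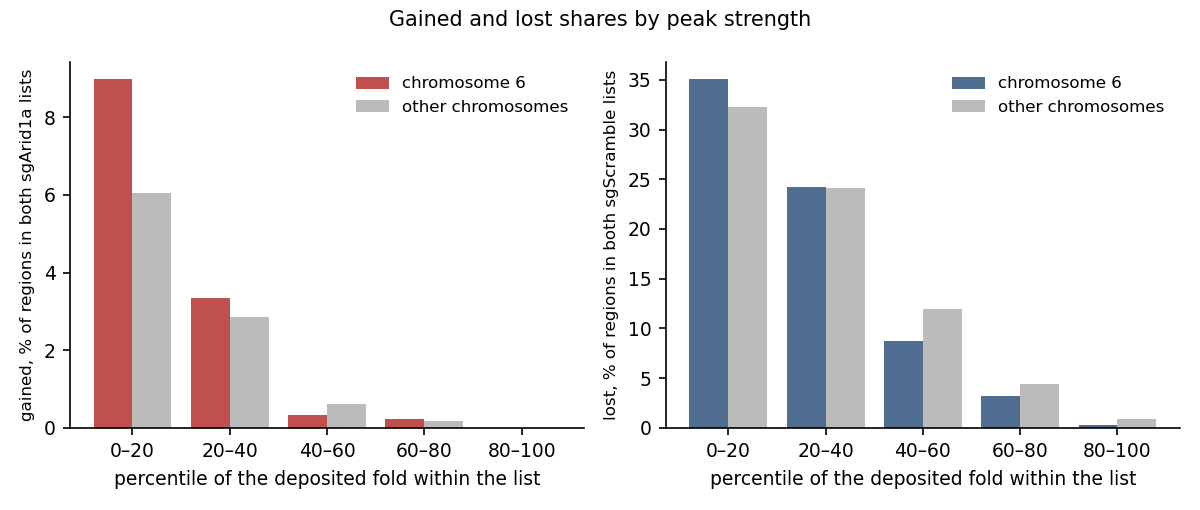
Gained (left) and lost (right) shares in 5 classes of the percentile of the deposited fold within a list, on chromosome 6 (coloured) and on the other chromosomes (grey). Below the 20th percentile chromosome 6 is higher in both (8.985% against 6.052%, and 35.09% against 32.31%). Above the 80th its lost share is lower, and the gained share is 0% on chromosome 6 and elsewhere.

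The strongest gained regions lay near genes of several functions. The first, at 114614233 to 114614617 with a percentile of 76.01, was nearest to Atg7, an enzyme of autophagosome formation. The second lay 125709 bp from Trim24, a bromodomain cofactor of nuclear receptors, at 37744811 to 37745102 with folds of 4.799 and 4.972 (percentile 74.49). Next were regions at 28460503 to 28461020 near Pax4, a transcription factor of islet cells (50.24), at 119166397 to 119166831 inside Cacna1c, a calcium channel gene, and nearest to the mRNA decapping gene Dcp1b (47.01), and at 86754592 to 86755056 inside Anxa4, an annexin gene (46.93). Some stronger regions were lost. The strongest lost region, at 35578800 to 35579717 and 38912 bp from Mtpn, had folds of 7.527 and 6.217 in the sgScramble lists (percentile 95.8). Others lay near Chchd6, a gene for a protein of mitochondrial cristae (89604002 to 89604326, 86.14), 941995 bp from Nxph1, a neurexin ligand gene (10191614 to 10191976, 84.72), in Sgce, the epsilon-sarcoglycan gene (4740390 to 4740969, 79.01), and in Lrmp (145158478 to 145158941, 78.02).

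The gains of the fullest windows were scattered over many genes. In window 8 they were nearest to Mrps33 and Ndufb2, which encode mitochondrial proteins, Cnot4 and Mkrn1, both ubiquitin ligases, Akr1d1, a steroid reductase, Zc3hav1, an antiviral RNA-binding protein, Creb3l2, a membrane-bound transcription factor, and Trim24. Their percentiles ran from 3.846 at Mkrn1 to 74.49 near Trim24. In window 18 the genes were Anxa4, the linker histone gene H1f10, Pcyox1, the transcription factor gene Egr4, Sfxn5, the adducin gene Add2 and Eefsec, an elongation factor for selenoproteins. In window 29 they included Slco1a5 and Slco1a6, neighbouring transporter genes, the predicted gene Gm5724 and St8sia1, which makes ganglioside GD3. In window 3, lost regions within 50 kb of a gene end were at Tmem106b, a lysosomal membrane protein gene (2 of 5), and at Phf14 and Bmt2 (1 each), while 5 more lay between 127326 and 369682 bp from Ppp1r3a.

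Of 1126 protein-coding genes, 949 had a region within 50 kb of an end, 340 had a lost region, 56 a gained one and 19 both. By this distance no gene had more than 2 gained regions, since the region of Phf14 at 12020807 lay 78726 bp from its nearer end. Chn2, which encodes the Rac GTPase-activating protein beta-chimaerin, had the most losses, with 6 of 17 regions, and 1 gain. Its body held 15 and 17 peaks in sgArid1a and 26 and 26 in sgScramble lists. Iqsec1, an exchange factor for ARF6, lost 5 of 10, with 15 and 20 peaks in its body in sgArid1a and 27 and 27 in sgScramble lists. Antxr1, an anthrax toxin receptor, lost 5 of 11, with 13 and 14 peaks against 21 and 21. These genes were named for their losses, and the peak counts come from the same lists. Losses of 4 regions each were at Nup210, a nuclear pore gene, Erc1, Polr1a, the large subunit of RNA polymerase I, Rybp, a Polycomb component, Ninj2 and Braf, and Suclg2 lost 3.

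Genes of receptor and RAS-RAF signalling lost regions at close to the chromosome's share. Of the regions assigned to the 15 members on chromosome 6, 15 of 104 were lost (14.42%) and 7 of 67 gained (10.45%), against 12.45% and 2.085% over all genes of the chromosome. Braf lost 4 of 10, with 6 and 7 peaks in its body in sgArid1a and 9 and 9 in sgScramble lists. These peak counts come from the same lists as the calls. Peaks at the ends of Braf covered 1256 and 1287 bp in sgArid1a against 1369 and 1305 bp in sgScramble lists. Met lost 3 of 16 and gained 2, and Rassf8 lost 2 of 9. The 7 gains were at Dusp16, Met and Rasgef1a (2 each) and Eps8, a substrate of the EGF receptor (1). Dusp16, Met and Rasgef1a are among the 5 genes of the chromosome with 2 gained regions. The list was chosen with earlier results of these data known, so its gained share is no test of the pathway. Dusp11, also in the list, is an RNA phosphatase, and Erc1 is known from NF-κB signalling and synapses.

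Chromatin regulators lost 12 of 79 regions (15.19%) and gained 4 of 61 (6.557%), against 12.45% lost and 2.085% gained over all genes of the chromosome. The losses were at 8 of 17 genes, with 4 of 13 at Rybp, 2 of 5 at Kdm5a, a histone H3K4 demethylase, and 1 each at Chd4, Ezh2, the H3K27 methyltransferase, Kdm3a, Phf14, Setd5 and Trim24. All gains were at Cecr2 and Phf14, also among the 5 genes with 2 gained regions. This list, too, was chosen with earlier results known. Among 21 genes listed as transcription factors, 15 of 116 regions were lost (12.93%) and 2 of 84 gained (2.381%), both near the shares over all genes. Losses were 2 of 7 at Creb5, 2 of 8 at Nfe2l3 and 1 each at Dlx5, Dlx6, Etv6, Foxp2, Gata2, Klf14, Mxd1, Nanog and Pparg. A gain lay at Zfp638. The list also held Add2, which encodes adducin and no transcription factor, with 2 losses and 1 gain.

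Melanocyte and pigment genes lost 7 of 86 regions (8.14%) and gained 1 of 71 (1.408%), against 12.45% and 2.085% over all genes of the chromosome. Mitf had 3 lost of 18 and the 1 gain, and kept 14 in all lists. Within 1 kb of its ends, peaks covered 2508 and 2140 bp in sgArid1a and 2579 and 1556 bp in sgScramble lists, and the groups overlapped. Losses of 1 region were at Bhlhe40, Rab7, Slc6a6 and Tmem176b. In the HoxA cluster and its neighbours 4 of 45 were lost (8.889%), at Hoxa13, Hoxa3, Jazf1 and Skap2, and none of 35 gained. Peaks at the ends of Hoxa13 covered 0 and 0 bp in sgArid1a and 92 and 101 bp in sgScramble lists, from the same lists as the calls.

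In the remaining 5 lists, shares can be read against the 12.45% lost and 2.085% gained over all genes of the chromosome, at which 0 or 1 gain in lists of this size is near the background. Innate immunity genes lost 7 of 48 regions (14.58%), with 2 of 5 at Samd9l and 1 each at Ltbr, Parp12, Trim24, Usp18 and Zc3hav1, and gained 1 of 39, at Zc3hav1. DNA repair and replication genes lost 7 of 47 (14.89%), 1 each at Gadd45a, Mcm2, Parp11, Parp12, Rad52, Tada3 and Xpc, and gained none of 39. The lost region at Xpc, a sensor of DNA damage in nucleotide excision repair, stood at percentile 66.0. Genes listed under cell cycle and apoptosis lost 4 of 43 (9.302%), at Aplf, Bcl2l13, Bid and Ccnd2, and gained none of 35. Wnt and TGF-beta genes lost 5 of 46 (10.87%), with 3 of 14 at Tcf7l1, a repressor of Wnt targets, and 1 each at Lrp6 and Wnt7a, and gained none of 38. Genes listed under adhesion and guidance lost 12 of 95 (12.63%) and gained 1 of 67, at Anxa4. Members of these lists were counted as listed, whether or not the name of the list describes their main function. Cav1, which encodes the main protein of caveolae, lost 3 of 7, with 1 and 1 peaks in its body in sgArid1a and 4 and 4 in sgScramble lists. Here too the peak counts come from the same lists as the calls. Itpr1, a calcium release channel gene, lost 3 of 14 and Sspn 2 of 7, and Cntnap2, Lrig1 and Plxna1 lost 1 each.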

How the data were processed

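ATAC-seq was analysed in 4 libraries of B16F10 cells, grouped and numbered by their titles. The sgScramble lists name their peaks with the prefix sgNT, and the titles were followed. For each library the authors deposited a broad peak list. Its columns are the authors' score, their fold or ratio over background, and the deposited −log10 of the p-value and of the q-value. The submitters' processing notes name STAR 2.5.3a, HOMER and the builds GRCm38 and mm10, with no roles. Neither the peak caller nor a Tn5 shift is given in the sources used here. Depth is unknown. Since folds and −log10 values vary with depth, strength was ranked within a list only, taking the strongest peak of a list in a region.

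Regions were placed in windows by their midpoint and a region went to the nearest protein-coding gene end, up to 50 kb away. The RefSeq gene table holds no strand, so both ends of a gene were used, and a gene-end region lay within 1 kb of one. Covered length was taken over the same distance. No genome sequence was used. An exact permutation test over libraries was used for values per library; other values are descriptions. Named genes were those of the gained regions in the 3 windows with most gained regions, of the lost regions in the window with the highest lost share, the 10 with most lost and with most gained regions, the 5 strongest lost and gained regions, and members of 10 lists (144 genes of the chromosome) with a lost or gained region; a few list members are not reported here by name. Genes of the promoters shown, of the groups within 100 kb and of windows described were named after their values were seen. The members, the lists and the tests were chosen with earlier results of these data known. Alternatives were a stricter q, lists of equal length, the upper 50% by fold, merging within 1 kb, a 50% overlap, a width minimum, shifted windows, other distances, leaving out each library and the replicate number as a block. On lists simulated from the merged regions, the calling step returned every planted lost and gained region. The planted regions met the definition of a call by construction, so this checks the code only. Peaks of the simulated lists shared their boundaries, so merging was not exercised, and false calls were not counted. The software was Python 3.11.15 (SciPy 1.17.1, pandas 2.3.3, numpy 2.4.6, matplotlib 3.10.9).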

Additional observations from a re-analysis of the deposited data

How the results depend on the processing

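Most shares moved with how peaks were filtered, and the cause was not tested beyond what a setting does by construction. The lost share of chromosome 6 (13.95%) was 22.76% with a −log10 q of at least 5, 7.049% with lists of equal length, 16.36% with the upper 50% by fold, 21.58% with at least 50% of a region covered and 15.89% with peaks of at least 500 bp. The gained share (2.19%) was 0.3688%, 4.777%, 4.29%, 3.035% and 1.481% in the same order. The fullest window (8 gained) held 2 with the stricter q, 14 with equal length and 4 with peaks of at least 500 bp. The share of gained regions within 500 kb of another (59.77%) was 0%, 81.42% and 23.08% in those 3 settings, 14.94% within 100 kb and 77.01% within 1 Mb. The lost share from 130 Mb (8.696%) was 20.24%, 4.167%, 13.8%, 14.78% and 11.67% in the 5 settings named first. The gained share there was 3.22%, against 2.032% up to 130 Mb. It was 0.3636% against 0.3696% with the stricter q, 5.894% against 4.606% with equal length and 6.356% against 3.982% with the upper 50%. The gained share of the first 20 Mb (4.615%) was 1.258%, 7.692%, 2.098% and 1.395% with the stricter q, equal length, the upper 50% and the width minimum. The difference in the share of a list on chromosome 6 reversed with the stricter q (-0.1487), the upper 50% (-0.2005) and the width minimum (-0.1319).

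Without 1 library fewer lists have to agree, so counts rise. The lost share then ran from 18.87% to 25.4%, the gained share from 3.753% to 12.16%, the fullest window from 10 to 41 and the share within 500 kb from 73.15% to 97.5%. From 130 Mb the lost share ran from 13.98% to 18.91% and the gained share from 5.104% to 13.46%, the gained share of the first 20 Mb from 6.154% to 20%, and the difference in the chromosome's share of a list from 0.0367 to 0.1346. Merging within 1 kb and windows shifted by 2.5 Mb left each value they apply to within its interval or 1.5 times. Of the 87 gained regions, 57 were also gained with equal length (of 183), 16 with the width minimum, 3 with the stricter q and 2 with the upper 50%. With the replicate number as a block, the difference in the chromosome's share of a list was 0.0856, with an exact p of 0.5. Nothing in the labels says what a number shares across the groups.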
